A study of Homo sapiens with 22 samples.

Results

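The comparison described here is the genotype by day interaction of the H2A.X experiment, that is, the effect of H2A.X loss at D6 of maturation minus its effect at D0. It rests on all 10 libraries of that experiment, out of 22 in the series, and no library was chosen by a measured value. The cells were HUDEP-2, human erythroid progenitors made immortal for culture, which divide in expansion medium (D0) and mature once moved to a second medium (D6). The groups were H2A.X WT at D0 (n = 2), H2A.X KO at D0 (n = 3), H2A.X WT at D6 (n = 2) and H2A.X KO at D6 (n = 3). Each genotype was sampled as subclones of the same line, made KO with CRISPR/Cas9 or left WT, so that every replicate was taken as 1 clone with its own history. Both media held erythropoietin, SCF and doxycycline, while dexamethasone is listed for the expansion medium only. A positive interaction means that a gene rose more, or fell less, from D0 to D6 in KO than in WT, and a negative one the reverse.

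H2A.X is a variant of histone H2A that is phosphorylated near DNA breaks and during apoptotic chromatin condensation. During terminal maturation, erythroid cells shut down the genes of progenitors and of the related mast cell, basophil and megakaryocyte lineages, and raise the genes for heme enzymes, globins, membrane proteins and transporters. GATA2, which acts in progenitors and mast cells, gives way to GATA1 in that process. An interaction asks whether this programme ran over the same range in both genotypes, whatever constant offset the genotypes had.

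The effect of H2A.X loss on 177 genes differed between the days, out of 13236 tested (1.34%; edgeR quasi-likelihood test, Benjamini-Hochberg adjusted p below 0.05). Of these, 137 were more negative at D6 (1.04% of the genes tested) and 40 were more positive (0.302%). The first included the tryptase genes TPSAB1 and TPSB2, the transcription factor GATA2, and EGR1, FOS and LGALS1, and the second included AQP1, CD36, ALAD, TMOD1 and SLC30A1. Over all genes tested the median interaction was 0.01 on the log2 scale. Of the 13236, 2016 had an unadjusted p below 0.05, and DESeq2 called 680. Such counts for the gene lists below are to be read beside these. Libraries with the same replicate number, taken here as 1 subclone, deviated together from their group means, with correlations of 0.306 to 0.606 over 9302 genes. A fit with a term for each subclone was therefore set beside the main one. With that replicate block 552 genes were called (4.17%), 341 of them more negative (2.58%) and 211 more positive (1.59%), and 174 of the 177 were among the 552.

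The libraries held between 11910141 and 21013004 counts, and replicates differed by more than sampling noise in all 8 pairs within groups. GATA1, KLF1, HBB and TFRC, which mark erythroid cells, were present in all 4 groups. H2AFX, the older symbol under which the tables list H2A.X, had 1575 and 1969 normalized counts in WT and 333, 787 and 760 in KO at D0 (scaled to the mean effective library size). At D6 it had 1748 and 2391 in WT and 308, 1050 and 799 in KO. Every KO library lay below every WT library on both days, and the interaction was -0.02 (SE 0.661, adjusted p = 0.998). BAZ1B, the other gene knocked out in the series, had an interaction of 0.05 (SE 0.342, adjusted p = 0.978).

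A pair of libraries stood apart and bears on the counts. WT replicate 2 at D6 was the shallowest library and had 2303 normalized counts of RN7SL1, an RNA of the signal recognition particle without a poly(A) tail, against 548 in WT replicate 1 at D6 and 56.0 to 159.7 in the other 8. Without it 94 genes were called, 86 of them among the 177. In the table's header, 5 KO libraries are marked Redo, and KO replicate 3 at D6 and the 4 WT libraries are not. Without KO replicate 3 at D6, 851 genes were called, with all 177 among them, and the split turned to 479 more positive and 372 more negative. What the mark stands for is not given in the sources used here, and its part in the results was not tested.

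**Figure D1:**
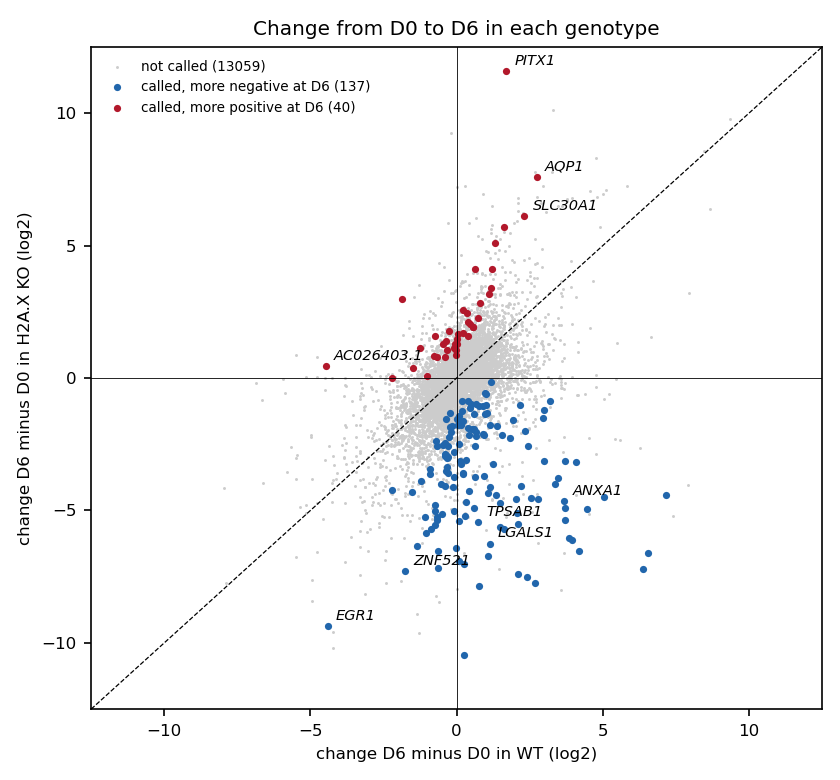
Log2 change from D0 to D6 in WT (horizontal axis, n = 2 subclones) against the change in H2A.X KO (vertical axis, n = 3), 1 point per gene tested, with the 137 genes called more negative at D6 in blue and the 40 called more positive in red; the dashed line marks equal changes. Every blue gene fell in KO, most at a WT change around 0 or above, and the red genes rose in KO.

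Most of the called genes passed the test for a change in KO and not in WT. Among the 137 more negative genes the median change from D0 to D6 was -3.58 in KO and 0.47 in WT (log2). For 126 of them the fall in KO passed the test and the change in WT did not. Another 7, among them CST7, ANXA1, ANTXR2 and CARMIL3, rose in WT and fell in KO, EGR1 and CDH24 fell in both, and RN7SL1 and LINC00847 rose in WT alone. By subclone, all 137 fell in each of the 3 KO subclones, and 42 and 57 fell in WT subclones 1 and 2. Among the 40 more positive genes the median change was 1.68 in KO and 0.04 in WT. Of these, 34 rose in KO alone, AQP1 rose in both, TSC22D1 fell in WT and rose in KO, and AC026403.1, CD44, FGFRL1 and PLCL2 fell in WT alone. As the genes were picked by the interaction, these counts describe the form it took. A change that missed the threshold in 2 WT subclones is not shown to be absent. Leaving the sign aside, the median WT change was 0.75 over the more negative genes and 0.60 over the more positive ones. Over all genes tested it was 0.34. The WT change is itself a part of the interaction that picked these genes, so no conclusion about WT is drawn from this.

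In terms of the KO effect, many called genes crossed over. For 81 of the 177 the KO effect passed the test on both days with opposite signs, 67 from higher to lower in KO and 14 from lower to higher. Among those with the largest interactions, CARMIL3, a regulator of actin, ZBTB32, a zinc finger repressor, and the clone-named AC244502.1 had groups near 0 reads, with interactions of at most -4.76, -5.11 and -4.31. Outside KO at D0, ZBTB32 and AC244502.1 were each above 10 normalized counts in a single WT library at D6. Passing the filter on low counts thus took reads from KO at D0, which already gave both a negative interaction. A further 39 more negative genes were higher in KO at D0 alone, and 31 were lower in KO at D6 alone. Of the more positive genes, 13 were lower in KO at D0 alone and 11 higher at D6 alone. AC026403.1 was lower in KO on both days and TLN2, a talin that links integrins to actin, higher on both.

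**Figure D2:**
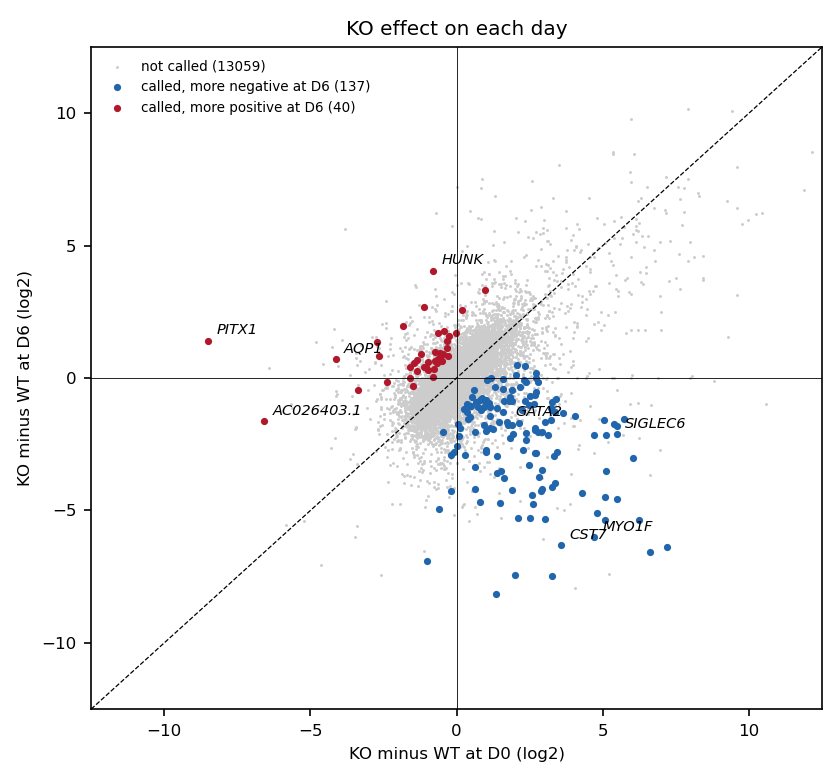
KO effect at D0 (horizontal axis) against the KO effect at D6 (vertical axis), both as log2 of KO over WT, 1 point per gene tested, coloured as in the plot of changes by genotype; on the dashed line the effect is the same on both days. Most blue genes lie at the lower right, higher in KO at D0 and lower at D6, and most red genes at the upper left.

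The list of mast cell, basophil and eosinophil markers had the lowest median interaction, at -6.19 beside 0.01 over all genes. Of its 24 genes 11 passed the filter on low counts, 5 were called more negative and none more positive, and 8 were called with the replicate block. Among the 11, CPA3, MS4A2, IL1RL1 and EPX had a mean above 10 normalized counts in KO at D0 alone, so that passing the filter already gave them a negative interaction, and the median and counts over the list describe it without supporting a direction. Among all 24, no read was seen in any of the 4 groups for PRG3, CLC, RNASE2, RNASE3, CMA1 and CCR3, while the tryptases took the largest part of the counts except in KO at D6. There ENPP3, an ectoenzyme of basophils and mast cells, took most of them, with a mean of 409 and an interaction of -1.86 (adjusted p = 0.103). The summed level of the list was 3815 and 3999.9 in WT at D0, 8335 to 14515 in KO at D0, 3280.1 and 5759 in WT at D6 and 447 to 884 in KO at D6. In bulk RNA, fewer cells of a type and less RNA per cell cannot be told apart.

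TPSAB1, which encodes alpha and beta tryptase, the main granule proteases of mast cells (chromosome 16, 1240379 to 1242554 in GRCh38), had 578 and 702 normalized counts in WT and 2591, 1301 and 1474 in KO at D0. At D6 it had 1395 and 746 in WT and 29.4, 13.3 and 80.1 in KO. All KO libraries were above WT at D0 and all were below WT at D6, with an interaction of -6.19 (SE 0.805, adjusted p = 0.00782). TPSB2 had 1232 and 1735 in WT at D0, 2663 and 1789 in WT at D6, 3855, 1861 and 2053 in KO at D0 and 76.2, 34.2 and 149.6 in KO at D6. Its KO libraries were above WT at D0 by a narrow margin, 1861 against 1735, and below WT at D6. The KO effect at D0 was 0.80 and was not called (adjusted p = 0.210). The interaction was -5.49 (SE 0.727, adjusted p = 0.00855). TPSD1 had an interaction of -5.03 (SE 0.735, adjusted p = 0.0126). TPSAB1, TPSB2 and TPSD1 are near-identical neighbours, so how reads were split between them is uncertain. TPSG1, a more distant tryptase named here after its values were seen, differed less, at -2.70 (SE 0.540, adjusted p = 0.0432).

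SIGLEC6, a sialic acid-binding receptor of mast cells (chromosome 19, 51517819 to 51531856), had 30.3 and 21.5 normalized counts in WT at D0, 147 and 73.4 in WT at D6, 2192, 509 and 828 in KO at D0 and 45.9, 14.3 and 16.4 in KO at D6. It rose in both WT subclones and fell in all 3 KO subclones (interaction -7.61, SE 1.02, adjusted p = 0.00887). HPGDS, the prostaglandin D2 synthase of mast cells, had 1.01 and 2.39 in WT and 66.8, 28.3 and 83.1 in KO at D0. At D6 it had 88.0 and 28.6 in WT and 0, 0 and 7.72 in KO. WT and KO thus exchanged their places (adjusted p = 0.0227), and with so few reads in 2 of the groups no fold is given. CPA3, the mast cell carboxypeptidase, and MS4A2, a chain of the IgE receptor, had no more than 2 reads in a KO library at D6, and edgeR called them with the replicate block (adjusted p = 0.0239 and 0.0335) and not without it (0.0791 and 0.0769). GCSAML, a signalling protein gene named by its size of change, had 71.8 and 61 in WT and 679, 653 and 748 in KO at D0. At D6 it had 312 and 96.6 in WT and 1.84, 14.3 and 24.1 in KO (interaction -7.33, SE 0.892, adjusted p = 0.00653).

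Few markers of other blood lineages passed the filter. Of 19 megakaryocyte and platelet markers 4 were tested, with a median interaction of 0.16 and none called (edgeR; 1 at an unadjusted p below 0.05, 1 called by DESeq2). ITGA2B, the platelet integrin that early progenitors also express, was the lowest at -3.15 (SE 0.668, adjusted p = 0.0532, and 0.0141 with the replicate block). PF4, PPBP and GP1BA had no read in any group. Of 16 neutrophil and monocyte markers 4 were tested and none was called (edgeR; 2 at an unadjusted p below 0.05, 0 by DESeq2), and MPO, ELANE and CTSG had no read. None of the 14 lymphocyte markers passed the filter. The summed level of the megakaryocyte list was 634 and 1004 in WT at D0, 784 and 917 in WT at D6, 1416 to 2158 in KO at D0 and 869 to 1684 in KO at D6. For the neutrophil and monocyte list it was 219 and 297 in WT at D0, 183 and 212 in WT at D6, 582 to 788 in KO at D0 and 287 to 334 in KO at D6. In KO both sums had a lower mean at D6 than at D0, as the mast cell sum did, and the part of these cells in the other results was not tested.

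Progenitor transcription factors moved in the same direction as the mast cell genes. Of 20 progenitor factors and receptors 12 were tested, 11 of them had an interaction below 0, and the median was -0.92. GATA2 (chromosome 3, 128479427 to 128493201) had 1231 and 1090.0 normalized counts in WT and 3745, 3945 and 3949 in KO at D0. On D6 the gene had 1659 and 902 in WT and 369, 278 and 572 in KO. GATA2 fell in all 3 KO subclones, while it rose in WT subclone 1 and fell in WT subclone 2, with an interaction of -3.40 (SE 0.435, adjusted p = 0.00751). CEBPA, a factor of granulocyte and mast cell progenitors, was the other called member (adjusted p = 0.0498), with at most 2 reads in a KO library at D6 and 3.43 and 5.37 normalized counts in WT at D6, too few for a fold. Its mean was above 10 normalized counts in KO at D0 alone, so that passing the filter already gave CEBPA a negative interaction. SPI1, which opposes GATA1, and KIT, the SCF receptor, were called by edgeR with the replicate block and not without it. SPI1 had an interaction of -2.24 (SE 0.527, adjusted p = 0.0690, and 0.0241 with the block) and KIT one of -1.48 (SE 0.538, adjusted p = 0.224, and 0.0261 with the block).

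IKZF2, a zinc finger factor of the Ikaros family (chromosome 2, 212999691 to 213152427), had 26.3 and 17.9 normalized counts in WT at D0, 18.3 and 37.6 in WT at D6, 1883, 578 and 556 in KO at D0 and 16.5, 1.90 and 3.86 in KO at D6. It was low in all 4 WT libraries, and in KO it was high at D0 only (interaction -7.31, SE 1.18, adjusted p = 0.0191). ZNF521, a zinc finger factor of early progenitors and 1 of 2 called among 403 tested ZNF genes, had 192 and 207 in WT and 1825, 921 and 1172 in KO at D0. By D6 the counts were 75.4 and 39.4 in WT and 12.9, 1.90 and 9.65 in KO (interaction -5.54, SE 0.675, adjusted p = 0.00653). It fell in all 5 subclones, and further in each KO subclone. RUNX2 and HES1 were named after their values were seen. RUNX2, a factor better known from bone, had at most 1 read in a KO library at D6, 105, 46.4 and 87.2 normalized counts in KO at D0 and 1.79 to 26.3 in WT, an interaction of at most -6.89 (adjusted p = 0.0137). Outside KO at D0, RUNX2 was above 10 normalized counts in WT replicate 1 at D6 alone. It passed the filter on low counts through KO at D0, so a negative interaction was already given by passing. HES1, a target of Notch, had 187 and 220.2 in WT and 455, 342 and 424 in KO at D0, and 248 and 222 in WT and 40.4, 25.7 and 35.7 in KO at D6 (interaction -3.79, SE 0.335, adjusted p = 0.00136).

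Immediate early genes respond to growth factor signals within minutes. Of these, EGR1, FOS and DUSP2 belonged to no list and were named after their values were seen. They do not stand for the class, which was not examined as a whole. BTG2 and ATF3, also counted among such genes, had interactions above 0, at 2.04 (adjusted p = 0.0464) and 3.10 (adjusted p = 0.206). EGR1 (chromosome 5, 138465479 to 138469303) had 1261 and 1226 normalized counts in WT and 12316, 7452 and 8437 in KO at D0. Its counts at D6 were 66.3 and 48.3 in WT and 4.59, 35.2 and 2.90 in KO. EGR1 fell in every subclone, with a log2 change of -4.42 in WT and -9.36 in KO (interaction -4.94, SE 0.840, adjusted p = 0.0227). FOS (chromosome 14, 75278826 to 75282230) had 171 and 160.3 in WT at D0, 60.5 and 159 in WT at D6, 1391, 920.2 and 1173 in KO at D0 and 7.35, 10.5 and 5.79 in KO at D6. All KO libraries were above WT at D0 and below WT at D6 (interaction -6.56, SE 0.566, adjusted p = 0.00136). DUSP2, a phosphatase that acts on MAP kinases, followed with -2.05 (SE 0.285, adjusted p = 0.0102).

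The stretches before the starts of EGR1 and FOS are shown because both genes answer to serum response factor, whose site is the CArG box, and because they moved together. They were read from RefSeq on GRCh38.p14 and hold the 250 bases before each start, 5′ to 3′ on the strand of the gene, with CArG boxes in capitals.
EGR1 (chr5:138465229-138465478, plus strand): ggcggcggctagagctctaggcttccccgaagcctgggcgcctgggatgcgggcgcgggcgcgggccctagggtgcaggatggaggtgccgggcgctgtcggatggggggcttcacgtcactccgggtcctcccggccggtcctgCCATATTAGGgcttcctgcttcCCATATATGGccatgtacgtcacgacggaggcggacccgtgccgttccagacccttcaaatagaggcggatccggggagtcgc
FOS (chr14:75278578-75278827, plus strand): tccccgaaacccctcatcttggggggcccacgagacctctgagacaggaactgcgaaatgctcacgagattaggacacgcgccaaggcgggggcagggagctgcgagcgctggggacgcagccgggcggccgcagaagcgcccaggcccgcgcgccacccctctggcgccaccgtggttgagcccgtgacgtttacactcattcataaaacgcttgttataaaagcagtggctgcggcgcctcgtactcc
The EGR1 stretch holds 2 CArG boxes, which end 96 and 74 bases before the start, and no CArG box is in the FOS stretch. Bases further than 250 from a start were not searched, so FOS is not shown to lack a CArG box. Among all 27305 stretches of this length from RefSeq, 1.14% hold a CArG box, as do 2 of 88 for the more negative genes and 0 of 35 for the more positive ones. A match is a description of the sequence and not a bound site.

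GATA motifs were searched in the same stretches, as the letters GATA with A or T before them and A or G after them, on both strands. They were held by 22.9% of all stretches and 13.2% of those of 9554 genes tested, and by 9 of 35 for the more positive genes (25.7%) and 17 of 88 for the more negative ones (19.3%). SLC30A1 and IKZF2, which both held a match and were named for the size of their interaction, are shown with the motif in capitals.
SLC30A1 (chr1:211579162-211579411, minus strand): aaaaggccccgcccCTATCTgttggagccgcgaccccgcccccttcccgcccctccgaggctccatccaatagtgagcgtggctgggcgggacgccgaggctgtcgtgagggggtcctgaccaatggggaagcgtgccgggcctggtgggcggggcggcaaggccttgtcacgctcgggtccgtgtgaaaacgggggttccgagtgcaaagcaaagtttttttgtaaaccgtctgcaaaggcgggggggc
IKZF2 (chr2:213152457-213152706, minus strand): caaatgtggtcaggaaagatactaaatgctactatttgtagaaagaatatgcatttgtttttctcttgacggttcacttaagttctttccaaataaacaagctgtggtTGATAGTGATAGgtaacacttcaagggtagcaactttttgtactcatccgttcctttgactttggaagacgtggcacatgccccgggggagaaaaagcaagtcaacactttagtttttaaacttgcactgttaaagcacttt
SLC30A1 holds 1 match and IKZF2 holds 2 that follow each other.

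Several genes with large negative interactions belonged to none of the lists of blood cell markers. LGALS1, a galectin (chromosome 22, 37675636 to 37679802), had 118 and 158 normalized counts in WT and 1086, 845 and 620.1 in KO at D0. On D6 the gene had 378 and 222 in WT and 4.59, 9.50 and 19.3 in KO. KO was above WT at D0 and below it at D6 without overlap (interaction -7.38, SE 0.626, adjusted p = 0.00136). ANXA1, an annexin, rose in WT from 38.4 and 44.3 to 765 and 295 and fell in KO from 205, 326 and 483 to 5.51, 16.2 and 18.3 (interaction -8.34, SE 0.802, adjusted p = 0.00224). CST7, a cystatin, rose in WT from 10.1 and 8.38 to 189.6 and 78.7 and fell in KO from 145, 97.9 and 93.7 to at most 3 reads in a library, an interaction of at most -9.17 (adjusted p = 0.00136).

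MYO1F, a myosin of white blood cells, had no read in KO at D6, 320.4, 89.3 and 117 normalized counts in KO at D0 and 5.05 to 10.7 in the 4 WT libraries, an interaction of at most -6.24 (adjusted p = 0.0223). SPTAN1, the alpha spectrin of cells other than red cells, had 579, 191 and 132 in KO at D0 and 3.86 to 7.35 in KO at D6, against 5.98 to 26.3 in WT (interaction -7.11, SE 1.05, adjusted p = 0.0128). ANTXR2, a receptor of the extracellular matrix, reached -7.08 (SE 0.765, adjusted p = 0.00393), and the pseudogene SIGLEC17P at most -6.62 (adjusted p = 0.0488). In these 4 genes the highest KO library at D6 was replicate 1 for ANTXR2, at 11.02 normalized counts. MYO1F and SIGLEC17P had a mean above 10 normalized counts in KO at D0 alone. Passing the filter on low counts thus already gave both a negative interaction. Of genes named after their values were seen, the actin-binding CAPG and TMSB4X and the calcium-binding S100A11 had interactions of -4.80 (SE 0.565), -3.20 (SE 0.653) and -5.50 (SE 0.979). RHEX, which takes part in erythropoietin signalling, had -4.05 (SE 0.628) and the kinase gene CDK15 had -6.98 (SE 0.680).

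Surface antigens and immune genes were split. Of 28 tested genes named by a CD number, 3 were called more negative and 2 more positive, with a median interaction of -0.23. CD52 and CD70 were lower, with -6.27 (SE 0.781, adjusted p = 0.00653) and -2.59 (SE 0.275, adjusted p = 0.00374). CD70, a ligand of the TNF family, had 726 and 1086 normalized counts in WT and 1051, 878 and 819.9 in KO at D0, so that the genotypes overlapped. By D6 the counts were 1178 and 1269 in WT and 204, 192 and 219 in KO. CD69, an activation antigen, had no read in WT at D0, 27.4 and 7.16 normalized counts in WT at D6, 1.69, 9.44 and 16.4 in KO at D0 and 0.918, 0 and 0 in KO at D6. The interaction was at most -4.08 with groups at the floor set to 3 reads per library (adjusted p = 0.0453). The interleukin receptor genes IL2RG and IL4R, named after their values were seen, were called as well. IL2RG had at most 5.70 normalized counts in 2 of the groups, so no fold is given (adjusted p = 0.0488), and IL4R had an interaction of -1.84 (SE 0.369, adjusted p = 0.0441). Outside KO at D0, CD69 and IL2RG were above 10 normalized counts in WT replicate 1 at D6 alone. Passing the filter on low counts thus took reads from KO at D0, which already gave both a negative interaction.

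Of 30 tested interferon-stimulated genes 3 were called, PSMB9, IFITM3 and BST2, all more negative, while the median of the list was 0.09. PSMB9, a subunit of the immunoproteasome, was the 1 gene that edgeR called of 46 tested proteasome genes (2 by DESeq2, 2 with the replicate block). It had 123, 88.4 and 40.3 normalized counts in KO at D0 and 8.00 at most in the other groups, an interaction of at most -4.85 (adjusted p = 0.0442). As PSMB9 passed the filter on low counts through KO at D0 alone, a negative interaction was already given by passing. BST2, an antiviral membrane protein, had 1451 and 2304 in WT and 2268, 1868 and 1750.0 in KO at D0. Its counts at D6 were 1641 and 2206 in WT and 658, 450.5 and 606 in KO (interaction -1.81, SE 0.344, adjusted p = 0.0361). The genotypes overlapped at D0 and not at D6. IFITM3 had -2.72 (SE 0.542, adjusted p = 0.0424).

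**Figure D3:**
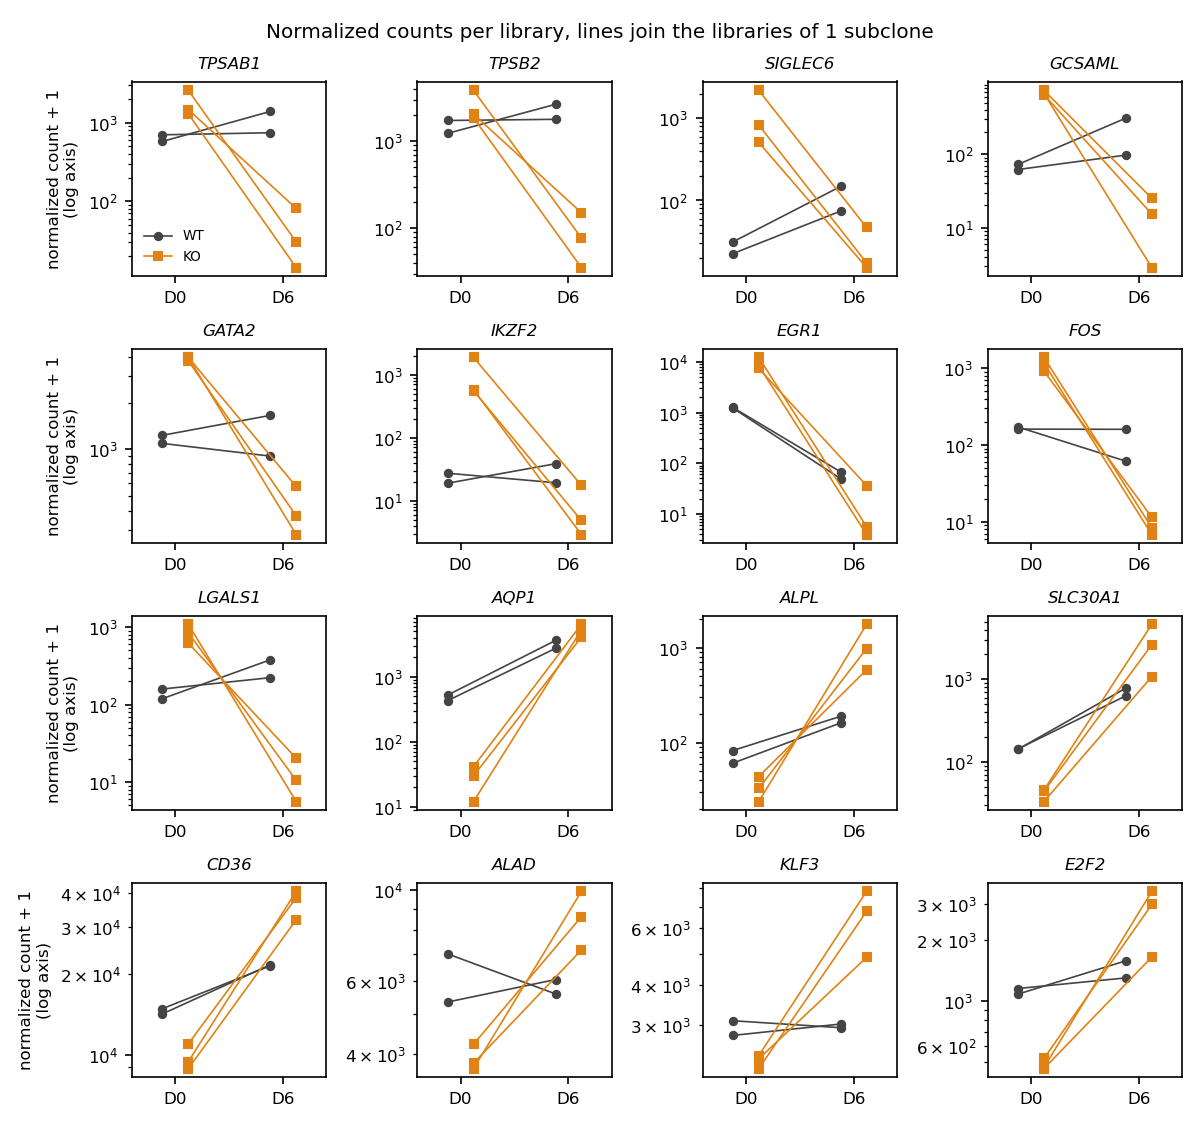
Normalized counts plus 1 on log axes at D0 and D6 for 16 genes, with WT subclones as circles (n = 2), KO subclones as squares (n = 3) and lines joining the libraries of 1 subclone; each panel has its own axis. In the panels from TPSAB1 to LGALS1 every KO line falls more steeply than the WT lines, and from AQP1 to E2F2 every KO line rises more steeply.

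Red cell surface genes held 3 of the called genes on the positive side, more than any other list. Of 25 tested blood group and surface genes 24 had an interaction above 0, with a median of 1.12, and AQP1, CD36 and CD44 were called. With the replicate block 12 of the 25 were called, among them ACKR1, which encodes the Duffy antigen. AQP1, the water channel that carries the Colton antigen (chromosome 7, 30911853 to 30925517), had 427 and 519 normalized counts in WT and 11, 40.3 and 28.8 in KO at D0. On D6 the gene had 2719.8 and 3600.4 in WT and 5227, 6370.4 and 4054 in KO. AQP1 rose in all 5 subclones, from below WT to above WT in KO (interaction 4.86, SE 0.511, adjusted p = 0.00374). CD36, a fatty acid transporter, rose from 14824 and 14179.7 to 21420.3 and 21609.8 in WT and from 10964, 9413 and 8869 to 38395, 40569.8 and 31798 in KO (interaction 1.35, SE 0.228, adjusted p = 0.0224). CD44, the hyaluronan receptor that is lost in maturation, fell in WT from 2769.9 and 2771 to 1427 and 1288, and in KO it had 2228, 2142 and 2452 at D0 and 2471, 2249.6 and 2554 at D6 (interaction 1.12, SE 0.186, adjusted p = 0.0216). CD44 is thus positive through the fall in WT, unlike the other two.

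All 8 heme biosynthesis enzymes had a positive interaction, with a median of 1.13. ALAD, the second enzyme of the path, was the 1 that edgeR called (5 by DESeq2), with 6995 and 5345 normalized counts in WT and 3797, 3684 and 4221 in KO at D0. By D6 the counts were 5593 and 6059 in WT and 7146, 9921 and 8609 in KO. KO crossed from below WT to above it (interaction 1.22, SE 0.250, adjusted p = 0.0488). With the replicate block ALAS2, CPOX, FECH and UROD were called as well, at adjusted p values of 0.0149, 0.00655, 0.00872 and 0.0133, against 0.0570, 0.172, 0.115 and 0.129 without it. Of 9 tested globin genes 7 had a positive interaction, with a median of 1.02, and edgeR called none (1 at an unadjusted p below 0.05, 0 by DESeq2). With the replicate block 4 were called, HBA1, HBA2, HBB and HBM. HBA1 rose from 15433 and 27522 to 29260 and 66247 normalized counts in WT and from 1874, 4336 and 3440 to 16737, 45737 and 21239 in KO. Its interaction was 1.96 (SE 0.723, adjusted p = 0.229, and 0.00570 with the block). HBA1 and HBA2 are near-identical, so how reads were split between them is uncertain.

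In the red cell membrane skeleton 13 of 15 tested genes had a positive interaction, with a median of 0.90. TMOD1, which caps actin filaments in the skeleton, was called, at 2231 and 2415 normalized counts in WT and 1042, 1246 and 1104 in KO at D0. Its counts at D6 were 2567 and 2843 in WT and 3208, 4768 and 2969 in KO, above both WT libraries (interaction 1.47, SE 0.285, adjusted p = 0.0386). SLC4A1, the anion exchanger band 3, had an interaction of 4.31 (SE 1.24, adjusted p = 0.132) and was called by edgeR with the replicate block (adjusted p = 0.0324). It spread widely among KO libraries at D0, from 216 to 3102.

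Of 20 erythroid transcription factors 19 had a positive interaction, with a median of 0.68, and KLF3, a repressor that KLF1 switches on, was called. KLF3 had 3099.5 and 2791 normalized counts in WT and 2203, 2417 and 2361 in KO at D0, and 2949 and 3028 in WT and 6764, 7803 and 4873 in KO at D6 (interaction 1.46, SE 0.263, adjusted p = 0.0285). Late erythroid enzymes and clearance factors were above 0 in 20 of 20 tested genes, with a median of 1.06, and none was called (edgeR; 11 at an unadjusted p below 0.05, 4 by DESeq2, 4 with the replicate block). Iron and heme handling genes were above 0 in 20 of 22, with a median of 0.49 and none called (edgeR; 9 at an unadjusted p below 0.05, 4 by DESeq2, 5 with the replicate block). In these lists the sign was shared by most members, while few single genes passed the threshold.

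AQP1 came behind PITX1 and AC026403.1 alone among genes named for the size of a positive interaction. PITX1, a homeobox factor (chromosome 5, 135027734 to 135034813), had no read in any KO library at D0, 42.5 and 47.9 normalized counts in WT at D0, 129 and 163 in WT at D6 and 661, 301 and 198 in KO at D6. Its interaction was at least 5.57 (adjusted p = 0.0113). SLC30A1, the zinc exporter (chromosome 1, 211571568 to 211579161), rose in WT from 143 and 141 to 631 and 782 and in KO from 43.1, 44.6 and 32.1 to 2623, 4631 and 1077 (interaction 3.80, SE 0.687, adjusted p = 0.0285). ALPL, an alkaline phosphatase (chromosome 1, 21509397 to 21578410), had 59.6 and 81.4 in WT at D0, 159.9 and 188 in WT at D6, 22.8, 31.8 and 42.8 in KO at D0 and 1764, 981 and 584 in KO at D6 (interaction 3.79, SE 0.621, adjusted p = 0.0209). In all 3 genes KO was below WT at D0 and above WT at D6 without overlap. The rule for naming them required that the changes of all KO subclones lie beyond those of both WT subclones. Of the 13236 genes tested, 5250 had such separate changes, so the lack of overlap only describes these genes. How many of all genes had levels without overlap on a given day was not counted. Statements here that genotypes did not overlap on a day thus describe single genes and are no evidence for a difference.

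HUNK, a kinase, had 43.5 and 43.1 normalized counts in WT at D0, 5.71 and 19.7 in WT at D6, 13.5, 24 and 37 in KO at D0 and 253, 227 and 119 in KO at D6 (interaction 4.85, SE 0.799, adjusted p = 0.0215). AC026403.1, a clone-named transcript that the annotation used here does not place, fell in WT from 257 and 461 to 11.4 and 21.5 and had 2.54 to 8.55 in all 6 KO libraries (interaction 4.93, SE 0.768, adjusted p = 0.0160). Its interaction is a change of WT alone. SCPEP1, a serine carboxypeptidase, and TMEM86B, which acts on plasmalogens, had interactions of 3.47 (SE 0.615, adjusted p = 0.0273) and 2.91 (SE 0.577, adjusted p = 0.0422). TLN2 and the zinc finger gene ZNF441 had 2.34 (SE 0.421, adjusted p = 0.0284) and 2.37 (SE 0.450, adjusted p = 0.0363). Both were above WT in every KO library at D6. PHOSPHO1, a phosphatase of late erythroid cells, and the mitochondrial carrier UCP2, named after their values were seen, had 2.22 (SE 0.394) and 1.58 (SE 0.290).

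Cell cycle genes were mostly on the positive side of 0. Of 45 DNA replication genes 44 had an interaction above 0, with a median of 0.41, and none was called (edgeR; 18 at an unadjusted p below 0.05, 5 by DESeq2, and RRM2, CDC6 and MCM4 with the replicate block). RRM2, a subunit of ribonucleotide reductase, was the highest at 1.44 (SE 0.323, adjusted p = 0.0604). E2F2, which drives S phase genes and was called in the list of G1 cyclins, CDKs and inhibitors, had 1147 and 1077 normalized counts in WT and 519, 469 and 463 in KO at D0. On D6 the gene had 1294 and 1571 in WT and 2972, 3449 and 1638 in KO, above WT in each (interaction 2.11, SE 0.373, adjusted p = 0.0273). MYBL2 and DONSON, named after their values were seen, act in the cell cycle and in replication and had 0.86 (SE 0.178, adjusted p = 0.0488) and 1.09 (SE 0.194, adjusted p = 0.0273). MYBL2 had 6520 to 7008 in the 4 WT libraries, 3743 to 4031 in KO at D0 and 6582 to 7403 in KO at D6, so that it differed between genotypes at D0 only. BTG2, an antiproliferative target of p53, was the 1 gene that edgeR called of 21 tested p53 targets (2 by DESeq2, 2 with the replicate block), at 2.04 (SE 0.415, adjusted p = 0.0464), and the median of that list was 0.08. Mitosis genes had a median of 0.08, with 0 of 28 called (edgeR; 1 at an unadjusted p below 0.05, 0 by DESeq2).

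Replication-dependent histone genes, whose mRNAs lack a poly(A) tail, had a median interaction of -2.22, with 48 of 52 tested genes below 0. edgeR called none of them (31 at an unadjusted p below 0.05, beside 2016 of all 13236 genes, 9 by DESeq2, 5 with the replicate block). The summed level of the list was 11016 normalized counts in WT replicate 2 at D6, 2881 in WT replicate 1 at D6 and 912 to 1811 in the other 8 libraries. The 2 WT libraries at D6 were also those with the most RN7SL1. RN7SL1, RN7SL3 and RF00003, 3 RNAs without a poly(A) tail, were themselves among the more negative genes, with interactions of -4.07 (SE 0.689), at most -4.57, and -4.35 (SE 0.897). Outside KO at D0, RN7SL3 was above 10 normalized counts in WT replicate 2 at D6 alone, so passing the filter took reads from KO at D0. The part of carried-over RNA without poly(A) tails in these values was not tested.

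Gene classes close to the function of H2A.X had interactions near those of all genes. The 18 tested kinases, phosphatases and readers of H2A.X had a median of -0.02 with 0 called (edgeR; 1 at an unadjusted p below 0.05, 0 by DESeq2), although their median KO effect was 0.77 at D0 and 0.76 at D6. The 21 caspases and chromatin condensation factors had a median of 0.05 with 0 called (edgeR; 1 at an unadjusted p below 0.05, 0 by DESeq2), and the 15 BCL2 family genes one of 0.16 with 0 called (3 and 0). The 10 histone variant genes had a median of 0.19 with 0 called (0 and 0). Cytoplasmic ribosomal protein genes show how an offset shared by both days drops out for the most part. Their median KO effect was -0.95 at D0 and -1.13 at D6. The interaction had a median of -0.16, below 0 in 63 and above 0 in 15 genes, with 0 of 78 called (0 at an unadjusted p below 0.05, 0 by DESeq2). Glucocorticoid-induced genes, listed because dexamethasone is named for the expansion medium only, were above 0 in 13 of 13, with a median of 0.66 and 0 called (4 at an unadjusted p below 0.05, 2 by DESeq2, 1 with the replicate block). The plot of interactions by gene list shows the spread of the members around these medians.

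**Figure D4:**
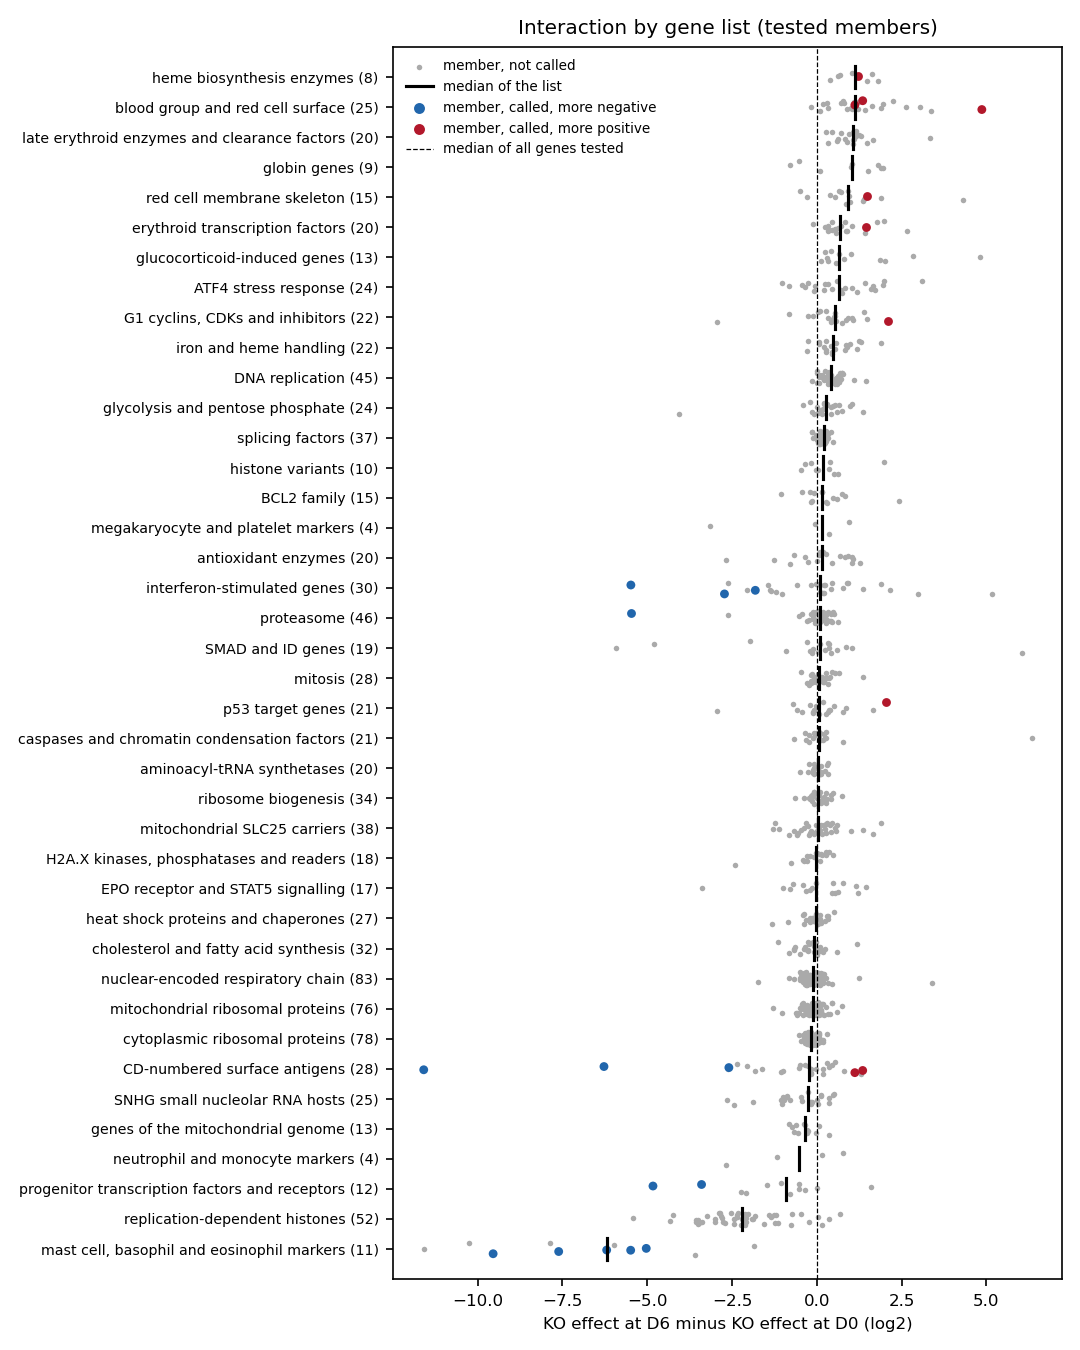
Interaction (KO effect at D6 minus KO effect at D0, log2) of each tested member of the gene lists, with called members in blue (more negative) or red (more positive), the median of each list as a black bar and that of all genes as a dashed line; the number of tested members stands in parentheses. Mast cell markers and replication-dependent histones lie to the left, heme, surface, globin and skeleton genes to the right, and most other lists around the dashed line.

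Transcript length and GC content, which moved with the KO effect on each day, moved less with the interaction. Over 12017 annotated genes Spearman's rho with the length of the canonical transcript was 0.544 for the KO effect at D0, 0.601 at D6 and 0.175 for the interaction. With GC content it was -0.251, -0.369 and -0.215. These are descriptions across genes, which share libraries and are not independent. The fifth of genes with the shortest transcripts had a median interaction of -0.16, with 33 called more negative and 2 more positive, and the fifth with the longest had 0.11, with 23 and 10. With a correction of each library for length and GC content 252 genes were called, 176 more negative and 76 more positive, and 164 of the 177 were among them. The median interaction per chromosome ran from -0.07 on chromosome 19 to 0.15 on chromosome 18.

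WT subclones of the BAZ1B experiment, which took no part in the choice of these genes, gave a separate view of their change in maturation. The 2 tables were normalized separately, so only changes within a table are set side by side, with no test between them. Of the 133 more negative genes tested in both tables, 131 fell from D0 to D6 in those WT cells, with a median change of -2.66 and medians of -2.54, -2.53 and -2.56 in the 3 subclones. The exceptions were HPGDS at 0.91 (SE 0.316) and PRDM8 at 0.24 (SE 0.320), and PRDM8 was below 0 in subclone 3. Of the 40 more positive genes 36 rose there, with a median of 1.73 and medians of 1.67, 1.69 and 1.87 by subclone. The exceptions were PLCL2 at -0.98 (SE 0.0568) and, nearer 0, ZNF441 at -0.29 (SE 0.418), CD44 at -0.15 (SE 0.0506) and FGFRL1 at -0.08 (SE 0.114). In the WT of the H2A.X experiment ZNF441 and CD44 changed by -1.23 and -1.03. Over all 12870 genes tested in both tables the median was 0.00 and 49.9% fell.

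For the same genes the median change was -3.53 and 1.68 in H2A.X KO, and 0.43 and 0.04 in the WT of the H2A.X experiment. GATA2 changed by -1.84 in the WT of the BAZ1B experiment, by -3.25 in H2A.X KO and by 0.14 in the WT of the H2A.X experiment. For TPSAB1 these changes were -3.78, -5.45 and 0.75, for LGALS1 -4.71, -6.25 and 1.13, and for AQP1 6.75, 7.60 and 2.74. In each of these 4 genes the change in KO was nearer to that in the other experiment's WT than the change in its own WT was. Over the 12870 genes Spearman's rho with the change in that WT was 0.853 for H2A.X KO and 0.525 for the WT of the H2A.X experiment, and the SD of the log2 changes was 1.23, against 1.23 and 0.87. These are descriptions across genes, and the experiments, their subclones and their processing cannot be told apart.

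**Figure D5:**
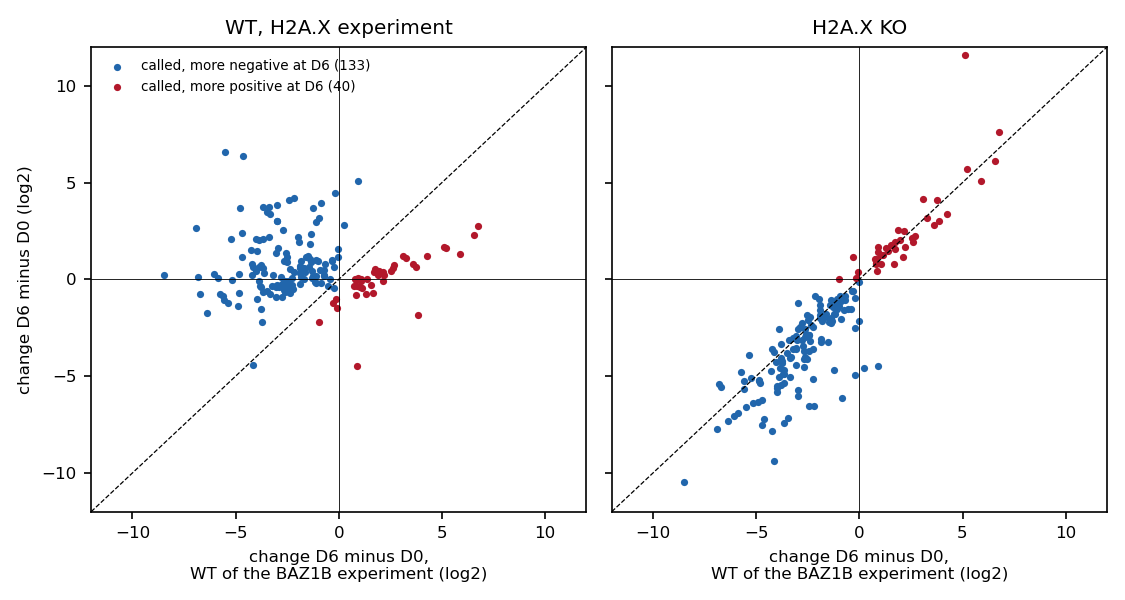
Change from D0 to D6 of the called genes in WT of the H2A.X experiment (left) and in H2A.X KO (right), against their change in WT of the BAZ1B experiment on the horizontal axes, all as log2; blue genes were called more negative at D6 (133) and red genes more positive (40), and the dashed line marks equal changes. In KO most genes lie along the dashed line or below it, and in WT they lie around 0 for most blue genes and below the line for the red ones.

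The calls rested on both WT subclones. All 177 interactions kept their sign in each of 22 other fits, among them those without any 1 library or subclone. The 177 were chosen from these same libraries. In each (40 more positive, 137 more negative) the D0 to D6 change of every KO subclone lay beyond those of both WT subclones. Keeping the sign was thus largely set in advance and is no further evidence. The number called, however, was 1 without WT subclone 1 and 2 without WT subclone 2, and 8 and 6 without WT replicates 1 and 2 at D0 alone. It was 42 without WT replicate 1 at D6. Without KO subclones 1, 2 and 3 it was 129, 45 and 252. With 2 WT subclones, a trait of the clones and one of the WT genotype cannot be told apart, and nothing in the sources used here says that replicates came from separate cultures beyond the subclones, so the p-values measure the spread between these subclones.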

How the data were processed

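Poly(A)-selected RNA of HUDEP-2 subclones was sequenced in 2 experiments, and the deposited values are raw read counts per gene, which the authors made with STAR 2.7.0f and Subread 1.6.4 (featureCounts) on hg38, per the submitters' processing notes and the study's methods. The authors' own tests, not used here, ran in DESeq2 1.22.1. The labels and the methods name different library kits, so strandedness is uncertain, and overlapping antisense genes cannot be told apart. Both tables list 59087 gene names, of which 36467 matched the reference annotation by name and 760 by an older symbol.

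The 10 libraries of the H2A.X experiment were filtered (filterByExpr, at least 10 counts in enough libraries and 15 in total) to 13236 genes, scaled by TMM and fitted with edgeR 4.0.16 in R 4.3.3, with 1 mean per group. The interaction was the contrast (KO minus WT at D6) minus (KO minus WT at D0), and p-values were adjusted over all genes by Benjamini-Hochberg at 0.05. All adjusted p-values in the text come from edgeR's quasi-likelihood test unless DESeq2 1.42.0 is named. Normalized counts were brought to the average effective size of the 10 libraries. Where a group was at 0 to 3 reads per library, the interaction is given as a bound with 3 reads per library. The common biological coefficient of variation was 0.239. Totals ran from 11910141 to 21013004 counts of reads without molecular identifiers. The floor of 3 reads covers counting error only, while the SEs and p-values of the fits also take in the spread between libraries. The replicate number was taken to name a subclone sampled on both days, although for WT the labels give a replicate number and no clone. Deviations of libraries that share a number correlated by 0.306 to 0.606 over genes with a mean count of at least 100, so a replicate block was fitted beside. With 2 WT libraries per day, the WT correlation is a single value (0.491).

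Named were H2AFX and BAZ1B, the 10 called genes with the largest interaction in each direction with a mean of at least 50 normalized counts and separate subclone changes, the called members of each list (at most 5, or otherwise up to 2), and up to 8 called genes with opposite KO effects on both days. Others are said to be named after their values were seen. The comparison, gene lists and named genes were chosen with earlier results of these data known. Scripts were tested on simulated data. Alternatives were DESeq2, upper-quartile scaling, globin genes left out, no filter, the replicate block, a correction for length and GC content, stricter thresholds and fits without each library or subclone. Leaving out single WT subclones of the BAZ1B experiment was added after seeing the data.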

Additional observations from a re-analysis of the deposited data

Results flagged for a closer look

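By the test of the interaction itself, 177 genes had a KO effect that was not the same on both days, and the fitted log2 interactions of those the text names are gathered here. For genes with a group at or near 0 reads, the fitted value depends on the prior count and is no bound. Such values were -9.89 for CST7, -10.74 for CARMIL3, -10.70 for MYO1F, -10.06 for ZBTB32, -9.91 for RUNX2, -9.54 for HPGDS, -8.63 for SIGLEC17P, -6.86 for IL2RG, -5.48 for PSMB9, -5.00 for RN7SL3, -4.83 for CEBPA, -11.59 for CD69, -13.58 for AC244502.1 and 9.91 for PITX1.

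Next in the order of the text the values were -7.61 for SIGLEC6, -7.33 for GCSAML, -6.19 for TPSAB1, -5.49 for TPSB2, -5.03 for TPSD1, -2.70 for TPSG1, -3.40 for GATA2, -7.31 for IKZF2, -5.54 for ZNF521 and -3.79 for HES1. They were -6.56 for FOS, -4.94 for EGR1, -2.05 for DUSP2, -4.05 for RHEX and -6.98 for CDK15. Genes in none of the marker lists had -8.34 for ANXA1, -7.38 for LGALS1, -7.11 for SPTAN1, -7.08 for ANTXR2, -5.50 for S100A11, -4.80 for CAPG and -3.20 for TMSB4X. Surface and immune genes had -6.27 for CD52, -2.72 for IFITM3, -2.59 for CD70, -1.84 for IL4R and -1.81 for BST2. RNAs without a poly(A) tail had -4.35 for RF00003 and -4.07 for RN7SL1.

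On the positive side the values were 4.93 for AC026403.1, 4.86 for AQP1, 4.85 for HUNK, 3.80 for SLC30A1, 3.79 for ALPL, 3.47 for SCPEP1, 2.91 for TMEM86B, 2.37 for ZNF441 and 2.34 for TLN2. Further values were 2.22 for PHOSPHO1, 1.58 for UCP2, 1.47 for TMOD1, 1.46 for KLF3, 1.35 for CD36, 1.22 for ALAD and 1.12 for CD44. The last were 2.11 for E2F2, 2.04 for BTG2, 1.60 for TSC22D1, 1.09 for DONSON and 0.86 for MYBL2.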

How the results depend on the processing

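All 177 interactions kept their direction in every other fit, which was largely set in advance by how they were chosen, while the number called moved. DESeq2 called 680 genes (281 more positive, 399 more negative), no filter on low counts 1007 (456 and 551), the replicate block 552 (211 and 341) and the block with the length and GC correction 577 (228 and 349), so that the more negative share was 58.7%, 54.7%, 61.8% and 60.5% against 77.4%. The length and GC correction alone called 76 more positive genes. At an adjusted p below 0.01, 31 genes remained past the threshold, 2 more positive and 29 more negative, and with an absolute log2 interaction above 1.5 as well as an adjusted p below 0.05, 26 were more positive. Leaving out 1 library or subclone gave 1 to 851 genes, 0 to 479 more positive and 1 to 372 more negative. Leaving out 1 subclone of the BAZ1B experiment's WT gave a median change of -2.76 to -2.61 for the more negative genes. The cause of these shifts was not tested, apart from the fewer or more samples and genes in each fit. The replicate numbers were taken to pair the samples, and the block kept 174 of the 177 calls. Of 68 named genes that were called, 68 stayed so with DESeq2, without the filter, with globin genes left out and with the block, and 62 with the length and GC correction. Upper-quartile scaling called 210 genes and leaving out globins 185. Low counts limit the genes at the floor, where 33 called genes had a group near 0 reads.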
